A study of Mus musculus with 6 samples.

Results

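Cadherins are calcium-dependent adhesion proteins that hold neighbouring cells together, and 10 of their genes that are classical cadherins or are known from the kidney were followed in ureteric bud cells of mouse embryos. The genes are Cdh1, Cdh2, Cdh3, Cdh4, Cdh5, Cdh6, Cdh11, Cdh13, Cdh16 and Cdh17. They were chosen by name among the 19296 genes that could be tested, and all 10 had a probe set that names no other gene. Affymetrix whole-transcript arrays were used for 3 samples of Dicer mutant cells and 3 samples of control cells, all at E15.5. The mutant genotype is written Dicerc/-; Hoxb7Cre; Rosa26YFP: a conditional Dicer allele, opposite a null allele, is recombined by a Cre transgene that is active in the ureteric bud and its derivatives, and a reporter turns recombined cells yellow-fluorescent. The control is given as wild type on the same mixed background. Its cells were also obtained by sorting for YFP after trypsin digestion, yet the labels do not say whether they carry Hoxb7Cre and Rosa26YFP, so the effects of Cre and of Dicer cannot be told apart. How many embryos stand behind each array is likewise not given.

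A classical cadherin spans the membrane, binds a cadherin of the same kind on the next cell through its outer repeats, and is tied to actin inside the cell by beta-catenin, alpha-catenin and p120-catenin. Which cadherins a cell carries helps to set which cells it stays with. In the kidney, the ureteric bud and collecting duct carry E-cadherin (Cdh1), nephron segments acquire other cadherins as they form, and the mature proximal tubule is known for N-cadherin (Cdh2). Dicer, the enzyme that cuts hairpin precursors into mature miRNAs, bears on this system partly through the miR-200 family, which represses the Cdh1 repressors Zeb1 and Zeb2.

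Expression is given in log2 units as RMA, the method that corrects background, normalises arrays to each other and summarises the probes of a set, left it, so a value compares arrays for 1 gene and not genes with each other. Array medians lay between 7.47 and 7.54, and arrays of 1 group correlated at 0.996 to 0.998 (Pearson's r across probe sets), arrays of different groups at 0.988 to 0.992. Dicer1 itself was at 9.80, 9.72 and 9.64 in mutant cells and at 10.31, 10.38 and 10.25 in control cells (log2 fold change -0.59, adjusted p = 0.0005). Where its probes lie relative to the deleted part is not known from the files. As a description of the sorted cells, whose probe sets cannot be ranked against each other by level, all 13 ureteric epithelium markers measured had a mean over the 6 arrays above the median of all probe sets, 7.51, as did 1 of 13 endothelial, 2 of 11 interstitial, 4 of 8 cap mesenchyme (Six2 through the mutant arrays), 5 of 7 early nephron, 1 of 8 proximal tubule, 1 of 6 loop and distal tubule, 0 of 4 podocyte, 0 of 3 glial and 0 of 5 leukocyte markers.

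Of the 10 cadherins, 1 rose in the mutant cells (Cdh2), 2 fell (Cdh4 and Cdh16) and 7 did not pass an adjusted p of 0.05 in limma's test over all genes. Among all 19296 genes 25.8% passed in either direction, 11.8% higher and 13.9% lower, so the share of cadherins that passed was close to the background. Centring each array on its median turned the balance over all genes, to 2696 higher and 2241 lower. Brightness mattered for all genes: 39.6% of those brighter than the median passed, 19.3% higher and 20.3% lower, and 11.9% of the dimmer ones. Of the 5 brighter cadherins 2 passed, both lower, and of the 5 dimmer ones 1 passed. The values of mutant and control arrays did not overlap for 5 of the 10, Cdh2 and Cdh3 with the mutant above and Cdh4, Cdh16 and Cdh17 with the mutant below, where 42.5% of all genes had no overlap, 18.3% with the mutant above and 24.1% with it below. The exact two-sided permutation test cannot go below p = 0.1 with 3 arrays against 3, and it gave 0.1 for these 5 genes. The median log2 fold change of the 10 genes was -0.0083, beside -0.05 for all genes. None of the 10 changed by 2-fold, as 1.08% of all genes did with an adjusted p past the threshold.

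**Figure D1:**
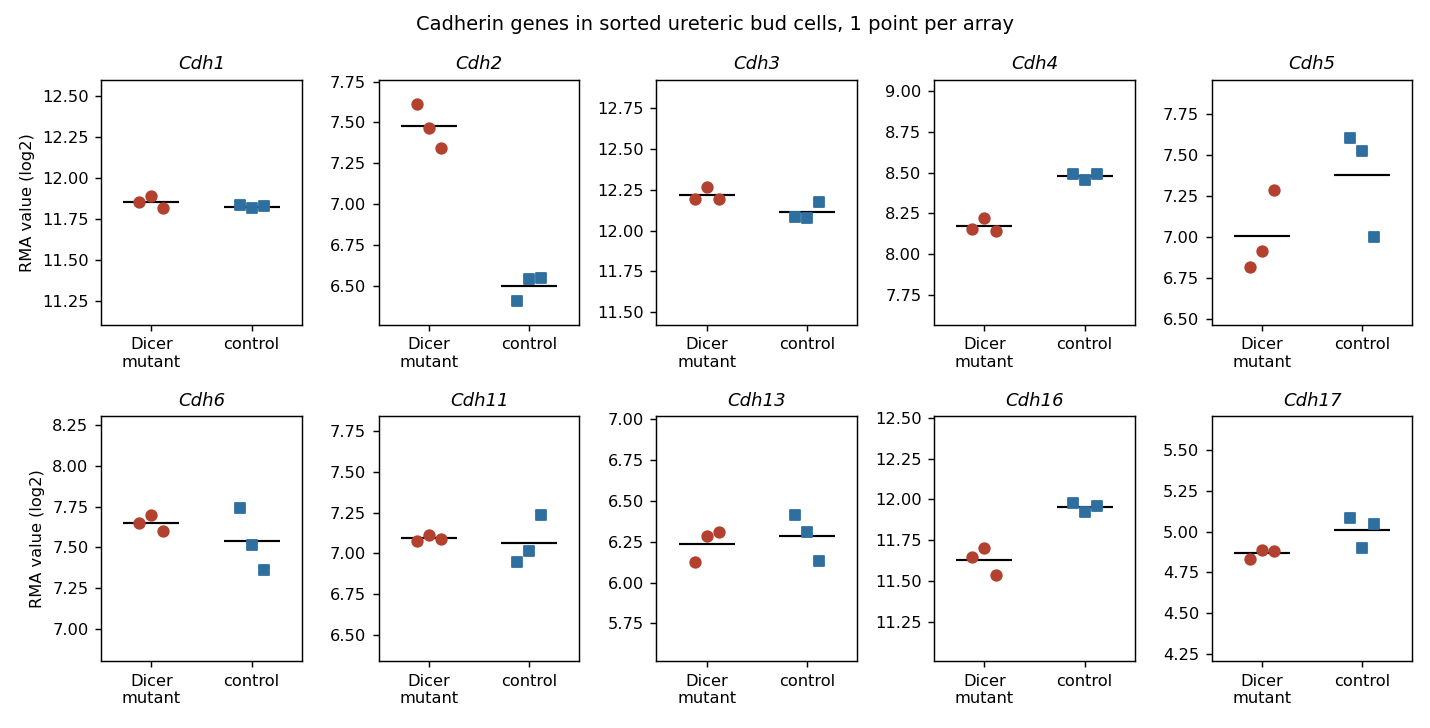
RMA values (log2, vertical axis) of the 10 cadherin genes on each of 3 Dicer mutant arrays (circles, left) and 3 control arrays (squares, right), with the group mean as a line; all panels span the same number of log2 units. Cdh2 stands apart with 7.35 to 7.61 in mutant cells and 6.41 to 6.55 in control cells, Cdh4 and Cdh16 are lower on every mutant array, and Cdh1 is nearly level.

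Cdh2, which encodes N-cadherin, was the cadherin that changed most. Its level was 7.61, 7.47 and 7.35 in mutant cells and 6.41, 6.54 and 6.55 in control cells. The groups were far apart, with the lowest mutant array above the highest control array. The means were 7.48 ± 0.13 in mutant cells and 6.50 ± 0.08 in control cells (SD, n = 3 each). This is a log2 fold change of 0.98 (standard error 0.08, 95% interval 0.79 to 1.16), or 1.97-fold (adjusted p = 0.000165). By size of change, up or down, it ranked 223 of 19296 genes. Both group means were dimmer than the probe set median of 7.51. In bulk RNA the number of cells that carry a transcript and its amount per cell cannot be told apart, here and for every gene that follows.

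Markers of the cells around the bud moved unevenly beside Cdh2. Over the whole array 25.8% of genes passed, 39.6% of the brighter and 11.9% of the dimmer ones. Of the markers, 4 of 8 cap mesenchyme, 1 of 8 proximal tubule and 2 of 11 interstitial ones were among the brighter genes. Of 8 cap mesenchyme markers measured, 2 rose and 1 fell, and 1 passed without mutant replicate 2, where 19.1% of all genes did. Their summed signal, on the linear scale, was 2371 to 2488 in mutant cells and 1274 to 1329 in control cells, and without Six2 the other 7 summed to 1102 to 1131 in mutant cells and 1118 to 1202 in control cells. The gap between the sums thus lay in Six2, the nephron progenitor factor, which rose to 10.34 ± 0.06 in mutant cells, against 7.05 ± 0.21 in control cells (SD, n = 3 each). Of 8 proximal tubule markers, 1 rose and 2 fell, with a summed signal of 936 to 979 in mutant cells and 750 to 989 in control cells. Without control replicate 3, 7 of these 8 passed, where 26.6% of all genes did. Without mutant replicate 1, mutant replicate 2 or control replicate 2, 1 of the 8 passed, where 17.9%, 19.1% and 21.5% of all genes did. The marker that rose was Lrp2, the endocytic receptor megalin (log2 fold change 1.05, adjusted p = 0.000256). It was at 8.77 in mutant cells and 7.72 in control cells and weighs most in the sum. The other 7 all had negative log2 fold changes, and the median of the 8 was -0.26, so the overlap of the sums does not describe the other 7. In limma's test 0 of 11 interstitial and stromal markers passed, 0 also by the unadjusted p (0.104 to 0.821), and their sums overlapped (1150 to 1272 in mutant cells, 1143 to 1300 in control cells). What part these cells or programmes have in the rise of Cdh2 was not tested.

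Cdh16, also called kidney-specific or Ksp-cadherin, belongs to a branch of cadherins with a short cytoplasmic tail and marks kidney tubule epithelium and collecting duct. Its level was 11.64, 11.70 and 11.54 in mutant cells and 11.98, 11.92 and 11.96 in control cells. Every mutant array was below every control array. The means were 11.63 ± 0.08 in mutant cells and 11.95 ± 0.03 in control cells (SD, n = 3 each), which leaves the mutant signal at 79.9% of the control signal (log2 fold change -0.32, 95% interval -0.47 to -0.18, adjusted p = 0.00635). The fall was small in size but several times larger than the spread between arrays. Among 13 ureteric epithelium markers 8 fell and 1 rose. All 13 were among the brighter genes, of which 20.3% fell and 19.3% rose over the whole array. Their summed signal was 39219 to 40406 in mutant cells and 45010 to 46112 in control cells, on the linear scale, where the brightest markers weigh most. The marker that rose was Wnt9b, the signal from bud to mesenchyme (log2 fold change 1.42). Whether the fall of Cdh16 is part of a fall of the ureteric programme was not tested.

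Cdh4, which encodes R-cadherin, a classical cadherin first described in the retina, fell by a like amount. Its level was 8.16, 8.22 and 8.14 in mutant cells and 8.49, 8.46 and 8.49 in control cells. Again no mutant array reached the lowest control array. The means were 8.17 ± 0.04 in mutant cells and 8.48 ± 0.02 in control cells (SD, n = 3 each), or 80.9% of the control level (log2 fold change -0.31, 95% interval -0.43 to -0.18, adjusted p = 0.00441).

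Cdh1, the E-cadherin that holds the bud epithelium together, showed no detectable change, and the data limit how large one could be. Its level was 11.86, 11.89 and 11.82 in mutant cells and 11.83, 11.81 and 11.83 in control cells. The groups overlapped within a span smaller than the change of any cadherin that passed. The log2 fold change was 0.03 with a 95% interval of -0.09 to 0.15 (adjusted p = 0.704). Both bounds lie nearer to 0 than the changes of Cdh2, Cdh4 and Cdh16.

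Cdh3, P-cadherin, is the neighbour of Cdh1 in the genome and shares its classical build. It was at 12.19, 12.27 and 12.19 in mutant cells and at 12.08, 12.08 and 12.18 in control cells. All mutant arrays were above all control arrays, but control replicate 3 came within a small fraction of the lowest mutant arrays. The log2 fold change of 0.10 (95% interval -0.03 to 0.24) did not pass (adjusted p = 0.229).

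Cdh5, the VE-cadherin of endothelial junctions, varied most from array to array. Its level was 6.82, 6.91 and 7.28 in mutant cells and 7.61, 7.53 and 7.00 in control cells. Mutant replicate 3 lay above control replicate 3, so the groups overlapped. The log2 fold change was -0.37, with a wide 95% interval of -0.78 to 0.03 (adjusted p = 0.166). The 13 endothelial markers measured showed a like pattern by array: their summed linear signal was 1211, 1306 and 1419 in mutant cells and 1639, 1631 and 1338 in control cells, again with mutant replicate 3 above control replicate 3. Of the 13, Plvap, a protein of endothelial fenestrae, fell and the transcription factor Erg rose, and 11 did not pass, among them the endothelial junction gene Pecam1 with a log2 fold change of -0.18 (adjusted p = 0.468). Of the 13, 1 was brighter than the median of all probe sets. Over the whole array 25.8% of genes passed, and 11.9% of the dimmer ones. The call for Plvap was lost without mutant replicate 1 or 2 or control replicate 1 or 2. Control replicate 3 decides the call for Cdh5. Without it Cdh5 passed with a log2 fold change of -0.56 (adjusted p = 0.0198), and 8 of the 13 endothelial markers passed, where 26.6% of all genes did. The part of endothelial cells in these values was not tested.

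**Figure D2:**
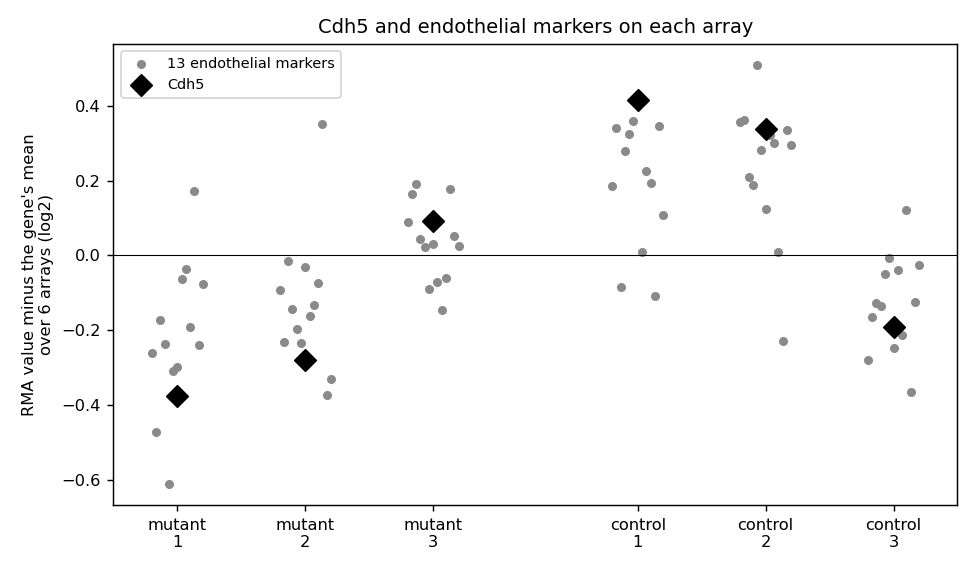
RMA value of Cdh5 (diamonds) and of 13 endothelial markers (points), each minus the gene's mean over the 6 arrays (log2, vertical axis), on each mutant array (left) and control array (right). Cdh5 is highest on control replicates 1 and 2 (7.61 and 7.53), and control replicate 3 (7.00) lies below mutant replicate 3 (7.28), as the sum of the markers does (1338 on control replicate 3 and 1419 on mutant replicate 3).

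Of the other members, Cdh6, a cadherin of the early proximal part of the nephron, was at 7.65, 7.70 and 7.60 in mutant cells and at 7.74, 7.52 and 7.36 in control cells. The control arrays spread on either side of the mutant arrays. The log2 fold change of 0.11 had a 95% interval of -0.11 to 0.33 (adjusted p = 0.434). Cdh11, a cadherin of mesenchymal cells, was at 7.08, 7.12 and 7.09 in mutant cells and at 6.94, 7.02 and 7.23 in control cells. Here too the control arrays enclosed the mutant ones, with a log2 fold change of 0.03 (95% interval -0.15 to 0.21, adjusted p = 0.822). Its direction turned without control replicate 1, to -0.03.

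Cdh13, T-cadherin, is unusual in having no cytoplasmic tail and being held to the membrane by a lipid anchor. It was at 6.12, 6.28 and 6.31 in mutant cells and at 6.41, 6.31 and 6.13 in control cells, and the groups overlapped fully. The log2 fold change was -0.04 (95% interval -0.25 to 0.16, adjusted p = 0.739), and its direction turned with quantile normalisation, without mutant replicate 1 and without control replicate 1. Cdh17, the liver-intestine cadherin and a relative of Cdh16, was at 4.83, 4.89 and 4.88 in mutant cells and at 5.08, 4.90 and 5.05 in control cells. The mutant arrays were all lower, by a narrow margin at control replicate 2, and the log2 fold change of -0.14 (95% interval -0.29 to 0.0076) did not pass (adjusted p = 0.153).

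**Figure D3:**
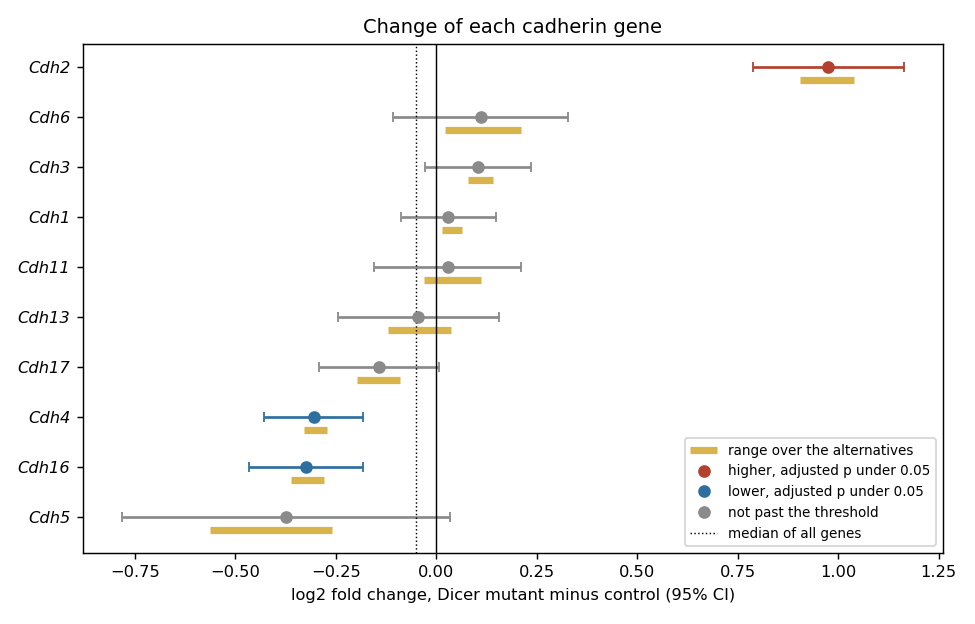
Log2 fold change of each cadherin gene, Dicer mutant minus control (horizontal axis), with its 95% interval from limma; the thick bar under each gene is the range of the value over the alternative settings and the dotted line the median of all genes, -0.05. Cdh2 at 0.98 is separate from the rest, Cdh4 at -0.31 and Cdh16 at -0.32 exclude 0, and Cdh5 at -0.37 has the widest interval.

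Most transcripts for the proteins that tie cadherins to the cytoskeleton did not pass. Of 13 catenins and cytoplasmic partners measured, 1 rose, 1 fell and 11 did not pass, although 11 of the 13 were among the brighter genes, of which 39.6% passed over the whole array. Their median log2 fold change was 0.0034. Mutant and control arrays did not overlap for 5 of the 13, as was so for 42.5% of all genes. Beta-catenin, Ctnnb1, was at 12.74, 12.76 and 12.74 in mutant cells and at 12.74, 12.74 and 12.75 in control cells. These 6 values were almost the same, and the 95% interval of the log2 fold change ran from -0.11 to 0.12. Alpha-catenin, Ctnna1, and p120-catenin, Ctnnd1, had log2 fold changes of 0.03 and 0.0058 (adjusted p = 0.727 and 0.947). The direction for Ctnnb1 and Ctnnd1 turned with single arrays left out. The member that rose was Jup, plakoglobin, which serves adherens junctions and desmosomes, at 11.49, 11.58 and 11.38 in mutant cells and 11.19, 11.19 and 11.15 in control cells (log2 fold change 0.31, adjusted p = 0.0112). The one that fell was Pkp4, a p120-related armadillo protein (log2 fold change -0.21, adjusted p = 0.0291). Its call was lost in 7 of 15 alternatives. With dim genes left out, 5 of the 11 remaining members passed, where 53.0% of all genes did, and 1 did without mutant replicate 1, 2 or 3 or control replicate 1.

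**Figure D4:**
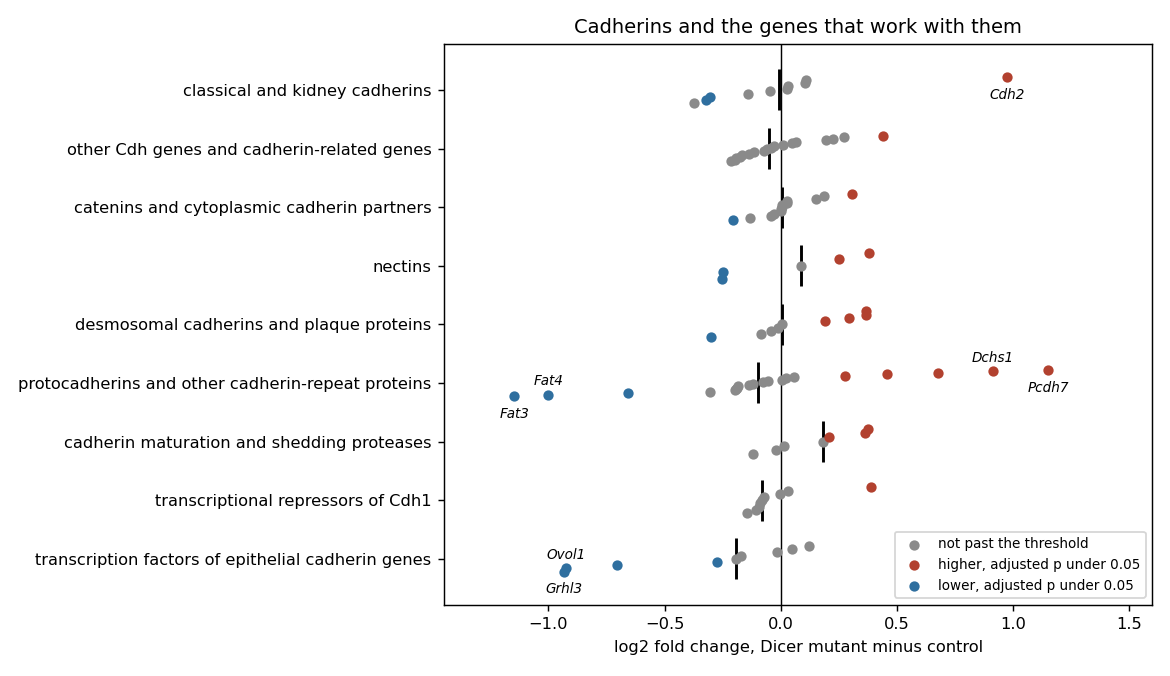
Log2 fold change, Dicer mutant minus control (horizontal axis), of every measured gene in the cadherin group and in 8 lists of related genes, 1 point per gene, coloured by whether it passed an adjusted p of 0.05, with each list's median as a line. The catenin row is narrow around a median of 0.0034 and the protocadherin row is wide, from -1.15 for Fat3 to 1.15 for Pcdh7.

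Desmosomal genes, whose cadherins anchor keratin filaments instead of actin, changed in part. Of 9 measured, 6 of them bright, 4 rose, 1 fell and 4 did not pass (median 0.0056 on the log2 scale). Beside this, 25.8% of all genes passed, 39.6% of the brighter and 11.9% of the dimmer ones. The desmosomal cadherin Dsg2 was at 9.81, 9.82 and 9.78 in mutant cells and at 9.49, 9.39 and 9.41 in control cells (log2 fold change 0.37, adjusted p = 0.00215). Dsp, desmoplakin, which links the plaque to keratin, likewise rose (log2 fold change 0.37, adjusted p = 0.00287). The plaque protein Pkp3 had a log2 fold change of 0.29 (adjusted p = 0.0173). Another plaque protein, Pkp1, fell by 0.30 on the log2 scale (adjusted p = 0.0323). The number of calls on the list fell to 3 without mutant replicate 1 or mutant replicate 3, and to 2 without mutant replicate 2, without control replicate 2 or with the replicate block. Dsg2 and Dsp were called in all 15 alternatives. In the same cells the keratins Krt8 and Krt19, with which desmosomes connect, fell by 0.25 and 1.19 on the log2 scale, while Krt18, the partner of Krt8, did not pass (log2 fold change -0.09, adjusted p = 0.294).

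Nectins, the immunoglobulin-type adhesion proteins that start adherens junctions alongside cadherins, changed in both directions. Of 5 measured, 2 rose, 2 fell and 1 did not pass. All 5 were among the brighter genes, of which 39.6% passed over the whole array. Nectin4 had a log2 fold change of 0.38 (adjusted p = 0.0105) and Pvr, the poliovirus receptor of the same family, one of 0.25 (adjusted p = 0.0215). Nectin3 and Nectin1 had log2 fold changes of -0.25 each (adjusted p = 0.0158 and 0.0276). The mutant arrays of these 4 genes did not overlap with the control arrays, as was so for 42.5% of all genes. The changes are small, and 1 of the 5 passed with the replicate block or without mutant replicate 2, and 2 without mutant replicate 3 or control replicate 2.

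Among protocadherins and other proteins with cadherin repeats, 5 of 20 measured genes rose, 3 fell and 12 did not pass (median log2 fold change -0.10). Of all genes 25.8% passed, and 7 of the 20 were among the brighter ones, of which 39.6% did. Pcdh7, a protocadherin, was at 10.86, 10.91 and 10.96 in mutant cells and at 9.64, 9.78 and 9.86 in control cells, 2.22-fold higher (adjusted p = 4.55e-05). Clstn3, a calsyntenin, had a log2 fold change of 0.68 (adjusted p = 0.000295). Dchs1, the large cadherin known as a ligand of Fat4, rose to 9.85 ± 0.06 in mutant cells, against 8.94 ± 0.10 in control cells (SD, n = 3 each), or 1.88-fold more (adjusted p = 0.000121). Its receptor Fat4 moved the other way, at 6.63, 6.90 and 6.67 in mutant cells and 7.94, 7.55 and 7.71 in control cells, and fell by 1.00 on the log2 scale (adjusted p = 0.000553). In the kidney this pair is known for signalling between stroma and nephron progenitors. The related Fat3 fell by 1.15 on the log2 scale (adjusted p = 0.000416). The array holds 15 probe sets for Fat3, and their mean gave a log2 fold change of -0.54. Among the remaining Cdh and cadherin-related genes 1 of 18 passed, Cdh7, a cadherin of neural tissue (log2 fold change 0.44, adjusted p = 0.0039), and 17 of the 18 were dimmer than the median of all probe sets. Without control replicate 1 or 3, 2 of the 18 passed.

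Among proteases that mature or cut cadherins, 3 of 7 measured genes rose and 0 fell. Of the 7, 6 were among the brighter genes, of which 39.6% passed on the whole array, 19.3% higher and 20.3% lower. The share that passed in either direction was near that background, but all 3 calls were higher, and the share that rose was above 19.3%. Adam10, which sheds the outer part of E-cadherin and N-cadherin, was at 10.98, 11.01 and 11.05 in mutant cells and at 10.50, 10.71 and 10.70 in control cells. The groups were clear of each other (log2 fold change 0.38, adjusted p = 0.00595). Mmp14, a membrane-bound metalloproteinase, had a log2 fold change of 0.36 (adjusted p = 0.00427), and Ncstn, a subunit of gamma-secretase, one of 0.21 (adjusted p = 0.0371). The call for Ncstn was lost in 8 of 15 alternatives.

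Transcription factors that act on Cdh1 were then read beside it. Of 9 repressors measured, 1 rose, 0 fell and 8 did not pass. Only 2 of the 9 were among the brighter genes, and of the dimmer ones 11.9% passed over the whole array. Zeb1, Zeb2 and Klf8 were all dimmer than the median of all probe sets, 7.51. On their own the missing calls of Zeb1 and Zeb2 say little, so their intervals are given. Zeb1 was at 6.29, 6.50 and 6.54 in mutant cells and at 6.65, 6.54 and 6.35 in control cells. Its groups overlapped, with a log2 fold change of -0.07 (95% interval -0.29 to 0.15). Zeb2 had a log2 fold change of 0.03 (95% interval -0.10 to 0.17), and the directions of both turned in some alternatives. Klf8, a Krüppel-like repressor, was the member that rose (log2 fold change 0.39, adjusted p = 0.0182), a call lost without mutant replicate 2 (adjusted p = 0.0625).

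The mature miRNAs that repress Zeb1 and Zeb2 are shown for the 4 miR-200 family loci that have a probe set of their own, since they are the Dicer products closest to Cdh1. Sequences are those of RefSeq (GRCm38.p6), 5′ to 3′, with the seed, bases 2 to 8, in capitals. The loci of miR-141 and miR-200c lie close together on the minus strand, at chr6:124717917-124717938 and chr6:124718324-124718346, and those of miR-200a and miR-200b at chr4:156054911-156054932 and chr4:156055685-156055706, also on the minus strand.
mmu-miR-141-3p: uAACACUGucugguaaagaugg
mmu-miR-200a-3p: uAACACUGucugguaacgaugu
mmu-miR-200b-3p: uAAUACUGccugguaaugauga
mmu-miR-200c-3p: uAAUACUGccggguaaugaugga
The seeds fall into 2 kinds, shared by miR-141 and miR-200a and by miR-200b and miR-200c. Mature miRNAs are too short for these arrays to be told from their precursors, so the probe sets show at most the transcript of the locus and not the product that Dicer makes. The log2 fold changes of the loci were 0.24 for Mir141, 0.10 for Mir200a, 0.17 for Mir200b and 0.0042 for Mir200c, none of which passed in limma (adjusted p = 0.247 to 0.978, unadjusted p = 0.119 to 0.965). All 4 loci were dimmer than the median of all probe sets, and the direction for Mir200c turned with single arrays left out.

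Of 9 measured transcription factors known to act on epithelial cadherin genes or the epithelial state, 4 fell, 0 rose and 5 did not pass. The median change was -0.19 on the log2 scale. Over the whole array 13.9% of genes fell, and 6 of the 9 were among the brighter ones, of which 20.3% fell. Without mutant replicate 2 or mutant replicate 3, 2 of the 9 passed. Ovol1, an epithelial zinc finger factor, was at 8.47, 8.39 and 7.99 in mutant cells and at 9.08, 9.23 and 9.32 in control cells. The groups were apart (log2 fold change -0.92, adjusted p = 0.00148). Grhl3, a grainyhead factor of surface epithelia, fell by 0.93 on the log2 scale (adjusted p = 0.016) and was not called without mutant replicate 2 (adjusted p = 0.0594) or mutant replicate 3 (adjusted p = 0.0516). The forkhead factors Foxa1 and Foxa2 had log2 fold changes of -0.70 and -0.27 (adjusted p = 0.0122 and 0.0215), and the call for Foxa2 was lost without mutant replicate 2 or 3 or control replicate 2, among other settings. Grhl2, the grainyhead factor known to activate Cdh1, did not pass, at 10.07, 10.07 and 10.02 in mutant cells and 9.90, 9.87 and 10.03 in control cells (log2 fold change 0.12, adjusted p = 0.188).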

How the data were processed

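The deposited table holds 1 log2 value for each probe set on each array. The authors used RMA and affy, per the submitters' processing notes. For their versions, the genome build or a filter, the sources used here give nothing. Among 23309 probe sets, 20728 list 1 gene symbol, 1174 several and 1407 are not listed in the platform annotation. Only the first kind was named, and per gene the one with the highest mean over the 6 arrays was kept, without a filter on dim genes. Genotype was the only term of the model fitted to each gene over all 6 samples (limma 3.58.1, R 4.3.3, eBayes), with two-sided p-values adjusted by Benjamini-Hochberg over all 19296 genes and a threshold of 0.05. The labels call the replicates biological, without naming the embryos. The p-values and intervals rest on the spread among 3 samples a group, which eBayes draws towards the spread shared by all genes. The number of samples limits the precision. Figures were drawn with matplotlib 3.10.9.

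The members and the gene lists were chosen with earlier results of these data known. The text names all members, Dicer1 and, of each list of related genes, the 4 genes with the smallest p among those called, or fewer. Named after their values were seen were Ctnnb1, Ctnna1, Ctnnd1, Fat4, Zeb1, Zeb2, Grhl2, the miR-200 loci and the cell type markers. Genes on the lists that only shared a probe set, or had none, were not analysed here. In 15 alternatives the model had a replicate block, array weights or robust eBayes with a variance trend, the values were quantile-normalized or centred on the median, the genes were kept as every probe set, as means of probe sets or only where bright, the threshold was 0.01, or 1 array was missing.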

Additional observations from a re-analysis of the deposited data

Results flagged for a closer look

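A signal higher in mutant cells appeared in 3 probe sets that no comparison used, because the annotation lists each of them under Cdh11 together with the RIKEN transcripts 6820431F20Rik and 2610005L07Rik. Their means were 12.29 in mutant cells and 12.06 in control cells for probe set 10457223, 9.28 in mutant cells and 8.97 in control cells for probe set 10577395, and 11.97 in mutant cells and 11.70 in control cells for probe set 10577412. The log2 fold changes were 0.23, 0.31 and 0.27 (limma over all 23309 probe sets, adjusted p = 0.0259, 0.0245 and 0.0197). The probe set that lists Cdh11 alone had a log2 fold change of 0.03. Which of the listed transcripts gives the signal was not tested.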

How the results depend on the processing

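Cdh2, Cdh4 and Cdh16 kept their direction and their call in every alternative in which they were tested, with log2 fold changes of 0.91 to 1.04, -0.33 to -0.27 and -0.36 to -0.28. Cdh2 is too dim to be tested with dim genes left out, so 0 members were higher there. Cdh1, Cdh3, Cdh6, Cdh11, Cdh13 and Cdh17 were called in none. With each array left out in turn, 3 or 4 members passed, Cdh5 joining without control replicate 3, and the genes lower numbered 1764 to 2973, the lowest without mutant replicate 1. The threshold of 0.01 left 2790 genes, 1367 higher and 1423 lower, and the same count of 3 members. Nothing in the labels says that the replicate numbers pair the samples. For samples with the same number, the r of their deviations from the group means was -0.19, -0.10 and -0.22. Deviations of 3 arrays from their own mean depend on each other, so these values cannot settle whether the numbers pair samples. With the replicate block 3603 genes and 3 members passed. Directions that turned belong to values near 0. With arrays left out, log2 fold changes ran from -0.032 to 0.11 for Cdh11, -0.12 to 0.019 for Cdh13, -0.0048 to 0.0062 for Ctnnb1, -0.010 to 0.027 for Ctnnd1, -0.15 to 0.0065 for Zeb1, -0.0018 to 0.068 for Zeb2 and -0.068 to 0.078 for Mir200c. Quantile normalization gave 0.036 for Cdh13 and 0.0094 for Zeb1, and array weights gave -0.0024 for Ctnnd1 and -0.045 for Mir200c; the cause was not tested.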

Other observations

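Among protein-coding genes in RefSeq's order, 4 of the 10 cadherins have another of them as their direct neighbour: Cdh3 lies next to Cdh1, and Cdh11 next to Cdh5. None of these 4 passed the threshold, which 25.8% of all genes did, and Cdh5 passed without control replicate 3. The 3 that passed, Cdh2, Cdh4 and Cdh16, have no other of the 10 beside them. With so few genes the split says nothing about position, and a link of position with change was not tested.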
